A study of Mus musculus with 8 samples.

Results

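The DNA on either side of the variably methylated intracisternal A particles (VM-IAPs) of the C57BL/6J mouse was examined for how far intermediate or differing methylation reaches beyond the element. Of 105 listed VM-IAPs, 99 lie on chromosomes 1 to 19, and their left and right sides gave 198 flanks of 5 kb, each divided into 20 steps of 250 bp counted outwards from the edge. The 473355 autosomal 5-kb regions that were tested served as background, with these flanks among them. A further 29 IAPs, which the study tested but did not place on the VM-IAP list, gave 58 control flanks. They are not all free of variation: 7 are on the study's additional list with a lower threshold. Among the controls is Cdk5rap1, a metastable epiallele known before, which the study found just below its threshold. Left and right follow the genome, whereas the 5′ and 3′ sides follow the strand of the element. No pair of flanks overlapped. Each locus keeps the gene name that the study gave it, and this gene need not be the nearest one.

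CpG methylation comes from oxidative bisulfite sequencing of the whole genome, in which oxidation precedes bisulfite so that 5-hydroxymethylcytosine is also read as unmethylated. The cells were resting CD43- B cells and naive CD4+ CD62L+ T cells from the spleens of unmodified female and male C57BL/6J mice of 6 to 8 weeks, and each sample pooled several mice. The labels list 8 samples, 2 for either cell type in either sex, but a single file is named for both of them. The 4 files were therefore taken as 4 libraries, with no spread between replicates inside a group. A difference between 2 libraries of these inbred mice can come from cell type, sex or the pool of mice. The groups share no replicate numbers, so at a given region the pool cannot be told apart from cell type or sex. This holds where a single library stands out and also where the B cell libraries lie apart from the T cell libraries.

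At promoters of Cd3d, Cd3e, Cd247 and Cd4, genes used by T cells, the B cell libraries had at least 70.3% methylation and the T cell libraries at most 9.87%. At promoters of the B cell genes Cd79a, Ms4a1 and Fcrla, the T cell libraries had at least 68.8% and the B cell libraries at most 24.2%. The libraries held 280919817 to 354634149 reads at CpGs, with a median of 14 to 17 reads per listed autosomal CpG. In the steps of the VM-IAP flanks the mean was 15.7 to 17.8 reads per CpG and library, with no step far below the others. Of the CpGs in the reference, fewer were listed in all 4 libraries near VM-IAPs than near controls (81.6% against 94.9% in the first step, 81.2% against 92.6% in the second), and the part of this in the results was not tested. A step was counted as measured when it had at least 2 CpGs listed in all 4 libraries and 20 reads in each, which held for 1542 of 3960 steps of VM-IAP flanks and 456 of 1160 control steps. A whole flank needed 5 CpGs, which held for 191 of 198 VM-IAP flanks and all 58 control flanks.

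IAPs are endogenous retroviruses bounded by long terminal repeats (LTRs), which hold promoter sequence, and most copies are kept silent with dense CpG methylation. At a VM-IAP the LTR carries a level that differs between genetically identical mice and is shared by the tissues of one mouse. Solo LTRs are what recombination between both LTRs of one insertion leaves behind. The VM-IAP list was drawn up by the study from the outermost CpGs inside the elements in data that include these samples, so a low or differing level inside an element is not a finding here. Flank CpGs took no part in that choice, although those nearest the edge can share reads with CpGs inside. Elements that differed by cell type had also been taken off the list.

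The first 250 bp outside the element are shown for 5 of the 10 flanks whose first step had the largest range over the 4 libraries, since the values further down are read from these CpGs. They come from build GRCm38 and run away from the element, so the first base is the one next to it. The Bex6 right flank (chr16:32200341-32200590, plus strand) is intergenic, the Snd1 right flank (chr6:28929354-28929603, plus strand) lies in an intron of Snd1, and the Art2a-ps right flank (chr7:101562374-101562623, plus strand) is intergenic. The Ano6 left flank (chr15:95753066-95753315, minus strand) overlaps an exon of Gm49169, and the Rnf157 left flank (chr11:116389155-116389404, minus strand) lies in an intron of Rnf157. Capitals mark the CpGs listed in all 4 libraries.
Bex6 right flank: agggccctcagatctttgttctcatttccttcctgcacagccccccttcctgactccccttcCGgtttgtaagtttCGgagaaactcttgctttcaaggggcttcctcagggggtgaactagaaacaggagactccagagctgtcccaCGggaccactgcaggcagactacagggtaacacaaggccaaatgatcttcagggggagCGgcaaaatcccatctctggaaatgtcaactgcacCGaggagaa
Snd1 right flank: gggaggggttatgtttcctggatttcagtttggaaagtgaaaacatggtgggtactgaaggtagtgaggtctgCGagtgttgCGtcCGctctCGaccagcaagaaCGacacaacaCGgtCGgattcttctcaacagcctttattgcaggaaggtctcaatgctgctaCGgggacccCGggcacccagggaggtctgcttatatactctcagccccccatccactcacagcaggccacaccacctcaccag
Art2a-ps right flank: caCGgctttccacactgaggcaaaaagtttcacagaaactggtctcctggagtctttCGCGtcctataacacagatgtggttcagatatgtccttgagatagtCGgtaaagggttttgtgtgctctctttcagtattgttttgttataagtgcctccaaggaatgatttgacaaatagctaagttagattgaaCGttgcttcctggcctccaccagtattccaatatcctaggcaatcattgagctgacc
Ano6 left flank: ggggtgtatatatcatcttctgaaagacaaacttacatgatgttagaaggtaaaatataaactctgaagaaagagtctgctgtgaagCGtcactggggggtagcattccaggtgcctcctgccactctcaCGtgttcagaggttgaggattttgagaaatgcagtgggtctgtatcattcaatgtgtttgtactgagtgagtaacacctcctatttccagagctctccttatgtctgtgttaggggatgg
Rnf157 left flank: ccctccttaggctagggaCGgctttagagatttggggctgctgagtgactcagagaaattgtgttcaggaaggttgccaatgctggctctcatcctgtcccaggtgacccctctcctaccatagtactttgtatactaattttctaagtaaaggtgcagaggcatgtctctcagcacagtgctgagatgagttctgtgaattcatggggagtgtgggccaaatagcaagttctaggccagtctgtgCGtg

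These sequences hold between 2 and 9 such CpGs each, so a step often rests on few sites. In the reference, 61.2% of the letters of the Snd1 sequence and 51.6% of those of the Art2a-ps sequence are marked as repeats, against 1.6% in Bex6 and Ano6 and 12.8% in Rnf157. The 6 bases just outside both edges were identical at 65 of 99 VM-IAPs and 21 of 29 controls, as left by the target site duplication of an IAP insertion.

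Next to the element, VM-IAP flanks were less methylated than control flanks in each library. In the first step the median level over 83 measured VM-IAP flanks was 85.4% in B cells and 78.4% in T cells of females, and 80% and 75.0% in those of males. Over 25 measured control flanks it was 92.5%, 94.3%, 94.1% and 95.1% in the same order. The difference, VM-IAP minus control, averaged -14.3 percentage points ± 5.4 (SD over 4 libraries), and the VM-IAP flanks were lower in 4 of 4 libraries. An exact sign-flip permutation test over the libraries (2-sided) gave p = 0.13, the smallest value that 4 libraries allow. Among all 3676924 autosomal steps the median level was 92.1%.

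The gap was largest in the first step. In the second step (250 to 500 bp) the difference averaged -4.88 points ± 2.82, in the third -5.08 ± 1.94 and in the fourth 0.02 ± 0.60 (SD over 4 libraries each). From 750 bp outwards the VM-IAP medians lay near the control medians, with a mean difference between -4.44 and 1.90 points in all but the steps from 3750 to 4000 bp and 4000 to 4250 bp. In those steps the VM-IAP flanks were 8.24 and 7.05 points higher, and only 17 and 16 control flanks were measured. In windows of 100 bp, a width chosen after the data had been seen, the median level of the VM-IAP flanks was 72.7% at 0 to 100 bp, 76.3% at 100 to 200 bp, 85.8% at 200 to 300 bp, 88.7% at 300 to 400 bp and 92.3% at 400 to 500 bp. Control flanks had 93.6%, 94.7%, 94.0%, 95.1% and 93.9% in the same windows.

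**Figure D1:**
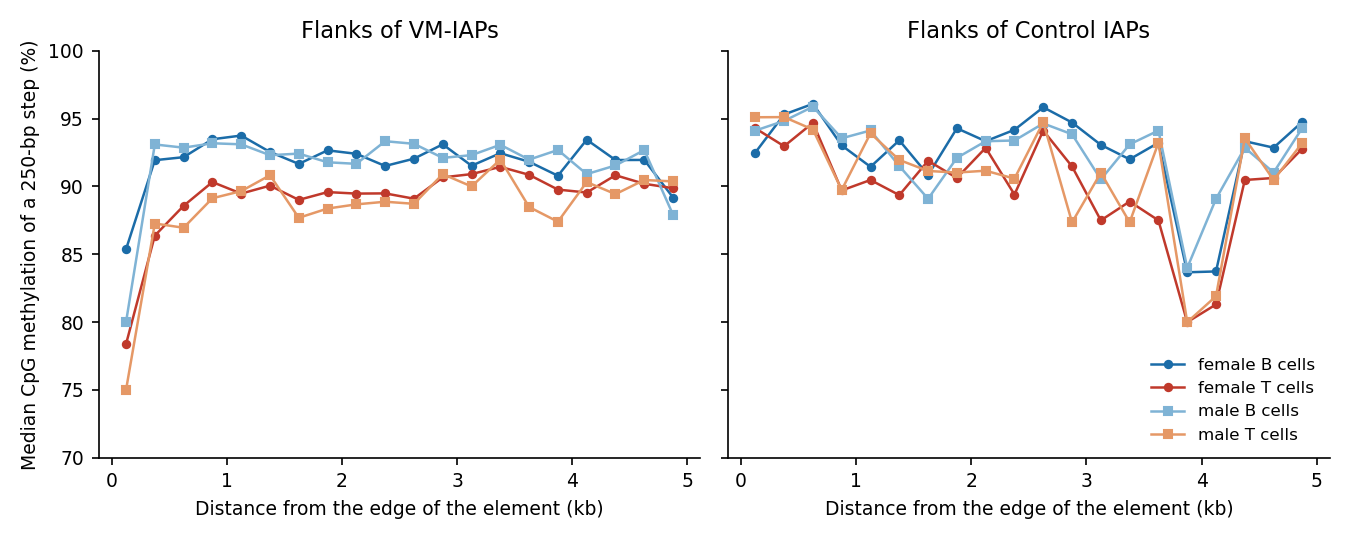
Median CpG methylation (%) of measured 250-bp steps against distance from the edge of the element (kb), for VM-IAP flanks (left) and control flanks (right), with 1 line per library and no error bars because each group is 1 library. The VM-IAP lines start between 75.0% and 85.4% and lie above 86% from the second step on, whereas the control lines start between 92.5% and 95.1% (y axis from 70%).

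Intermediate levels were more frequent than low ones in the first step. A step was called affected when its mean level over the libraries lay between 20% and 80%, or when its highest and lowest library differed by at least 20 points, and 18.5% of all autosomal steps met this. In the first step 39 of 83 VM-IAP flanks were affected (47.0%) and 0 of 25 control flanks. With limits of 30% to 70% or 30 points it was 25 of 83 (30.1%) and 0 of 25. Of the 39, 25 met both conditions, 9 only the level and 5 only the range. Another 8 VM-IAP flanks were under 20% in this step without being affected, among them Bmf left (mean 2.04%) and Sfpq right (mean 6.20%), and the remaining ones were over 80%. Between the highest and lowest library lay a median of 14.8 points in the VM-IAP flanks and 8.53 in the controls, against 7.91 over all autosomal steps. The difference of these medians, 6.31 points, was 3.19 without the female B cell library and 1.41 when the range was taken between the second highest library and the second lowest. Measured first steps had a median of 46 reads per library in the VM-IAP flanks and 59 in the controls. Counting error alone widens a range at fewer reads and at intermediate levels, and its share in these ranges was not tested.

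The share of affected steps fell with distance. It was 30.3% in the second step, 31.0% in the third and 25.9% in the fourth, and between 17.6% and 32.1% in each step beyond 1 kb. Control flanks had 0 of 22 affected in the second step, 14.3% in the third and 24.1% in the fourth. Beyond 1 kb, 21.3% of 1231 VM-IAP steps and 23.9% of 352 control steps were affected, whereas within the first 1 kb these shares were 33.8% and 10.6%.

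**Figure D2:**
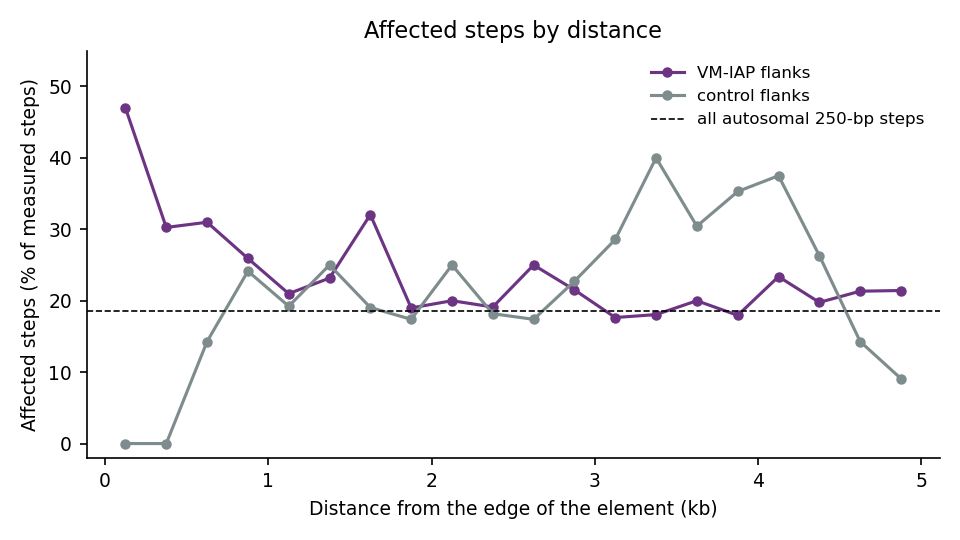
Share of measured steps that were affected (%, level from 20% to 80% or range of at least 20 points) against distance from the edge of the element (kb), for VM-IAP flanks, control flanks and, as a dashed line, all autosomal steps (18.5%). The VM-IAP flanks start at 47.0% and approach the dashed line beyond 1 kb, while the control flanks are at 0% in the first and second step and reach 40.0% farther out.

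Flanks of solo LTRs were lower in the first step than those of VM-IAPs over 1 kb as a whole, though not lower than the flanks beside a variable LTR that are described next (medians of the mean level of 69.2%, 82.4% and 57.8%). In 34 measured flanks of solo LTRs the median was 79.6% in B cells and 60.6% in T cells of females, and 74.5% and 65.0% in those of males, and 20 were affected (58.8%). Among elements over 1 kb long, 18 of 47 VM-IAP flanks were affected (38.3%) and 0 of 20 control flanks, and the mean difference between those sets was -9.99 points ± 3.6 (SD over 4 libraries). Flanks of VM-IAPs up to 1 kb minus those of longer ones gave -12.3 points ± 5.04 in the first step, in 4 of 4 libraries (exact sign-flip permutation p = 0.13), and -0.21 ± 2.07 in the second. The share affected was 53.7% of 41 flanks on the 5′ side and 40.5% of 42 on the 3′ side.

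The study lists 38 autosomal VM-IAPs that have LTRs at both ends and vary at 1 of them, so that both flanks of the same insertion can be set side by side. The flank beside the variable LTR was lower. Over 19 measured flanks on that side the first-step median was 58.5% in B cells and 61.1% in T cells of females, and 67.6% and 68.6% in those of males, and 10 were affected. Another 4 of the 19 had a mean under 20% and were not affected. Over 15 measured flanks beside the other LTR it was 92.5%, 85.0%, 90.3% and 92.0%, and 4 were affected. The variable side stayed 24.9 points ± 6.23 below the other side in the second step and 10.7 ± 2.08 in the third, and was 4.09 ± 3.39 below in the fourth (SD over 4 libraries), with 3 of 4 libraries lower there.

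With steps of 500 bp the within-locus difference given next was -27.4 points over 19 loci. In 9 of these loci both first steps were measured, and the variable side had the lower mean in 7. The median difference within loci was -78.9 points in B cells and -48.7 in T cells of females, and -62.9 and -26.2 in those of males, a mean of -54.2 ± 22.4 (SD, exact sign-flip permutation p = 0.13, lower in 4 of 4 libraries). At Olfr161 the side of the variable LTR had 10.1%, 15.8%, 17% and 12.6% (B and T cells of females, then B and T cells of males, the order used from here on) against 89.7%, 89.6%, 96.4% and 92.5% on the other side. At Arhgap31 the values were 19.5%, 9.62%, 23.5% and 13.0% against 98.4%, 85.7%, 86.4% and 90.9%. These loci differ by side in each library, without overlap. Their variable sides, with means of 13.9% and 16.4%, were low and not affected, as were those of Bmf (2.04%) and Sfpq (6.20%). At Bmf and Sfpq the affected first step was on the other side. Vmn2r97 showed no difference by side (means 94.9% and 94.3%), and Hunk, a kinase gene, went the other way, with a mean of 55.5% on the variable side and 15.7% on the other.

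**Figure D3:**
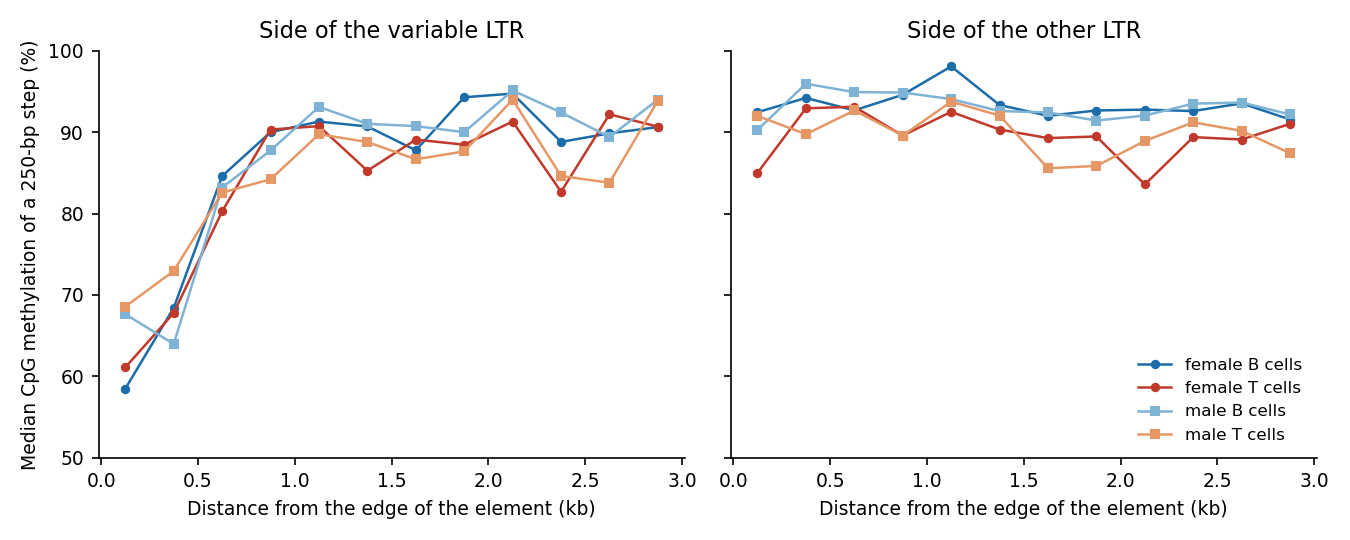
Median CpG methylation (%) of measured 250-bp steps against distance from the edge (kb, first 3 kb), beside the LTR listed as variable (left) and beside the other LTR of the same kind of element (right), with 1 line per library. On the variable side the lines climb from between 58.5% and 68.6% to between 84.2% and 90.3% in the fourth step, and on the other side they start between 85.0% and 92.5% (y axis from 50%).

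The libraries of a flank were also set beside those of the end of its element. In the last 250 bp inside the element, the median level was 72.4% over 167 measured VM-IAP ends and 95.7% over 54 control ends. Across the 74 VM-IAP flanks measured both inside and in the first step, the deviations of the 4 libraries from their locus mean correlated at Pearson r = 0.42 (296 points). This was 0.40 in the second step, 0.27 in the third, 0.24 in the fourth, 0.21 in the fifth and 0.07 in the sixth, and lay between -0.03 and 0.24 farther out, with 0.24 at 2000 to 2250 bp. Control flanks, with 24 measured, had 0.25 in both the first and the second step and up to 0.45 farther out, above the first step of the VM-IAP flanks, so no distance at which the likeness ends can be read from these values. These are descriptions without a test, since points of a locus share libraries, and flank and element can share reads. The library that was lowest inside was also lowest outside in 31 of 74 VM-IAP flanks in the first step, in 15 of 62 at 500 to 750 bp and again in 30 of 72 at 3750 to 4000 bp. In control flanks it was so in 8 of 24 in the first step and in 10 of 20 at 2500 to 2750 bp.

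Of the steps tested for a difference between the 4 libraries (likelihood ratio test of edgeR, adjusted over all autosomal steps, with a range of at least 20 points), 4.00% were called across the autosomes. Among VM-IAP flanks 12 of 83 first steps were called (14.5%), then 24 of 228 at 250 to 1000 bp (10.5%) and 71 of 1231 beyond 1 kb (5.77%). Among control flanks these were 0 of 25, 6 of 79 (7.59%) and 26 of 352 (7.39%). The test compares these libraries and not conditions, and it cannot say which of the cell type, the sex or the pool of mice set them apart.

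At Bex6 right, the side of the variable 3′ LTR, the difference between libraries shrank over the first 5 steps. In its first step the level was 1.85% (95% Wilson interval 0.509 to 6.50) in B cells and 48.9% (38.7 to 59.1) in T cells of females. In B and T cells of males it was 25.8% (18 to 35.5) and 65.8% (54.6 to 75.5). These levels rest on 76 to 108 reads per library, summed over 5 CpGs. A read over several of them counts at each, so these intervals are too narrow. Both T cell libraries were above both B cell libraries, and the difference between libraries was called (adjusted p = 2.15e-14, edgeR likelihood ratio test). That test used the same summed reads, so its p-value may be too small. The last 250 bp of the element had 0%, 33.8%, 9.68% and 62.5%, the same order of libraries. The range then shrank from 63.9 points in the first step to 58.4, 35.9 and 28.7 in the second to the fourth and 7.56 in the fifth, where the levels were 87.0%, 91.3%, 85.5% and 93.1%. The sixth step had a range of 21.4 points, through a lower female T cell library (69.3%), and was not called. On the left, beside the LTR not listed as variable, the first step had 97.1%, 97.6%, 100% and 92.0%.

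Snd1 right differed in male T cells alone. Snd1 encodes a nuclease-domain protein of RNA regulation. The first step had 86.5% (80.6 to 90.9) in B cells and 96.2% (90.5 to 98.5) in T cells of females, and 96.1% (89.2 to 98.7) and 36.4% (28.3 to 45.4) in those of males. The second had 85.5%, 83.0%, 91.9% and 33.8%, and the fifth step, the next one measured, 95.2%, 91.7%, 93.4% and 91.7%. At each of the 9 CpGs of the first step, male T cells lay between 20% and 50% and the other libraries between 72.7% and 100%. Each of those CpGs was covered by only 7 to 22 reads per library, and a read over several of them counts at each, so the intervals are too narrow. The last 250 bp of the element had 90.5%, 87.0%, 97.1% and 62.9%.

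In the other 9 of the 10 flanks with the largest first-step range, the levels of the B cell libraries did not overlap those of the T cell libraries, and 6 of the 9 were called between B and T cells (edgeR quasi-likelihood test). Pink1 left (adjusted p = 0.235), Hunk left (0.0703) and Rab6b right (0.0501) were not, and at Pink1 the nearest B and T cell libraries had 62.2% and 60.9%. Snd1 right was called between B and T cells too (mean difference of 25.0 points), although its T cells were the higher ones in females. A call between B and T cells can thus rest on a single library. At Art2a-ps right, beside a solo LTR named after a pseudogene of an ADP-ribosyltransferase, the levels were 95% in B cells and 51.0% in T cells of females, and 98.9% and 50.6% in those of males (adjusted p = 9.26e-15 between B and T cells, edgeR). At Ano6 left, named after the gene of a phospholipid scramblase, they were 90.7%, 26.9%, 74.1% and 24.0% in the same order (adjusted p = 0.000107 between B and T cells, edgeR). At Hist4h4 right, at a histone H4 gene, they were 13.2%, 81.2%, 40.0% and 77.3% (adjusted p = 0.000552 between B and T cells, edgeR), on 20 to 38 reads. B cells were thus higher at Art2a-ps and Ano6 and lower at Hist4h4, in both sexes and without overlap. Rnf157 left had 82.4%, 22.2%, 50% and 31.8%, also without overlap. A flank chosen for its pattern after its values were seen was 1700030C10Rik left, with 42.8%, 50.2%, 67.6% and 70.6%, where both male libraries were above both female ones. Its difference between the 4 libraries was called (adjusted p = 0.0191, edgeR likelihood ratio test), but that between females and males was not (adjusted p = 1, edgeR quasi-likelihood test).

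**Figure D4:**
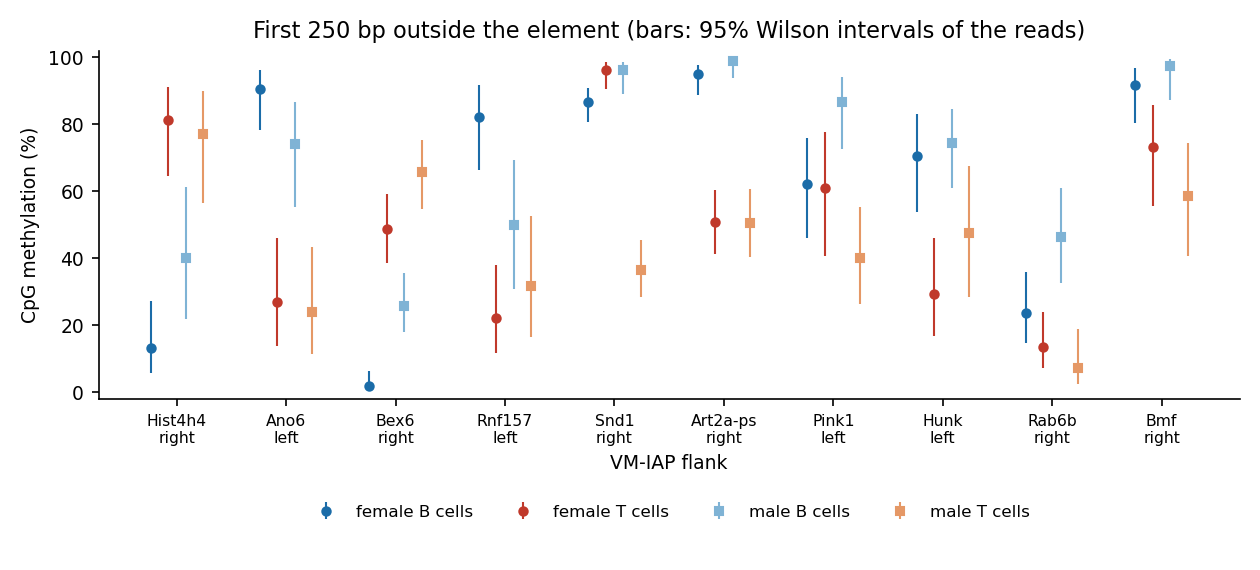
CpG methylation (%) of the first 250 bp outside the element in each library, for the 10 VM-IAP flanks with the largest range in that step. Bars are 95% Wilson intervals of the reads and cover counting error only. The points of the B and T cell libraries do not overlap in 9 of the 10, although their bars do at Pink1, Rnf157, Hist4h4, Hunk, Rab6b and Bmf, and at Snd1 male T cells (36.4%) lie apart from the other libraries.

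The remaining flanks of these 10 were Pink1 left (named after the gene of a mitochondrial kinase), Hunk left, Rab6b right (a Golgi GTPase gene) and Bmf right (a pro-apoptotic gene), with ranges of 46.8, 45.1, 39.4 and 38.9 points. In all 83 first steps, both B cell libraries lay above both T cell libraries in 27 and below them in 8, and they overlapped in 48. Of the 25 control first steps these counts were 3, 6 and 16. Of all autosomal steps, 25.5% had both B cell libraries above and 14.9% both below. Among the 30 with a range of at least 20 points these counts were 11, 3 and 16. Of the 107 called steps at any distance, 100 had no overlap of B and T cells, and of all called autosomal steps 96.7% did. The 7 exceptions included 2 in the first step, Snd1 right and 1700030C10Rik left, and 2 beyond 1 kb.

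Steps called between B and T cells mostly had B cells higher, near and far from the element and across the autosomes. Between B and T cells (edgeR quasi-likelihood test, difference of at least 20 points) 3.34% of all autosomal steps were called, a comparison added for steps after the data had been seen. Among VM-IAP flanks 85 of 1542 steps were called, with B cells higher in 71, and among control flanks 27 of 456, with B cells higher in 23. B cells were higher in 22 of 27 called VM-IAP steps within 1 kb and 49 of 58 beyond, and in 71.2% of all called autosomal steps. P4ha1 left, named after the gene of a collagen prolyl hydroxylase, had 93.9% in B cells and 0.90% in T cells of females, and 92.4% and 2.22% in those of males at 750 to 1000 bp. Its step at 500 to 750 bp, nearer the element, had 97.4%, 86.1%, 100% and 81.8%, a smaller gap in the same direction. Its first step was not measured, and the single CpG there, 78 bp from the edge, had 91.3%, 61.5%, 87.5% and 61.5%. At Trbv31 left, which overlaps a T cell receptor beta variable segment, the step at 3750 to 4000 bp had 95.7%, 9.09%, 92.9% and 4.76%. At Ano6 right the step at 3250 to 3500 bp had 61.7%, 1.69%, 87.5% and 4.82%, whereas the first step had 96.0%, 93.2%, 94.8% and 96.9%.

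**Figure D5:**
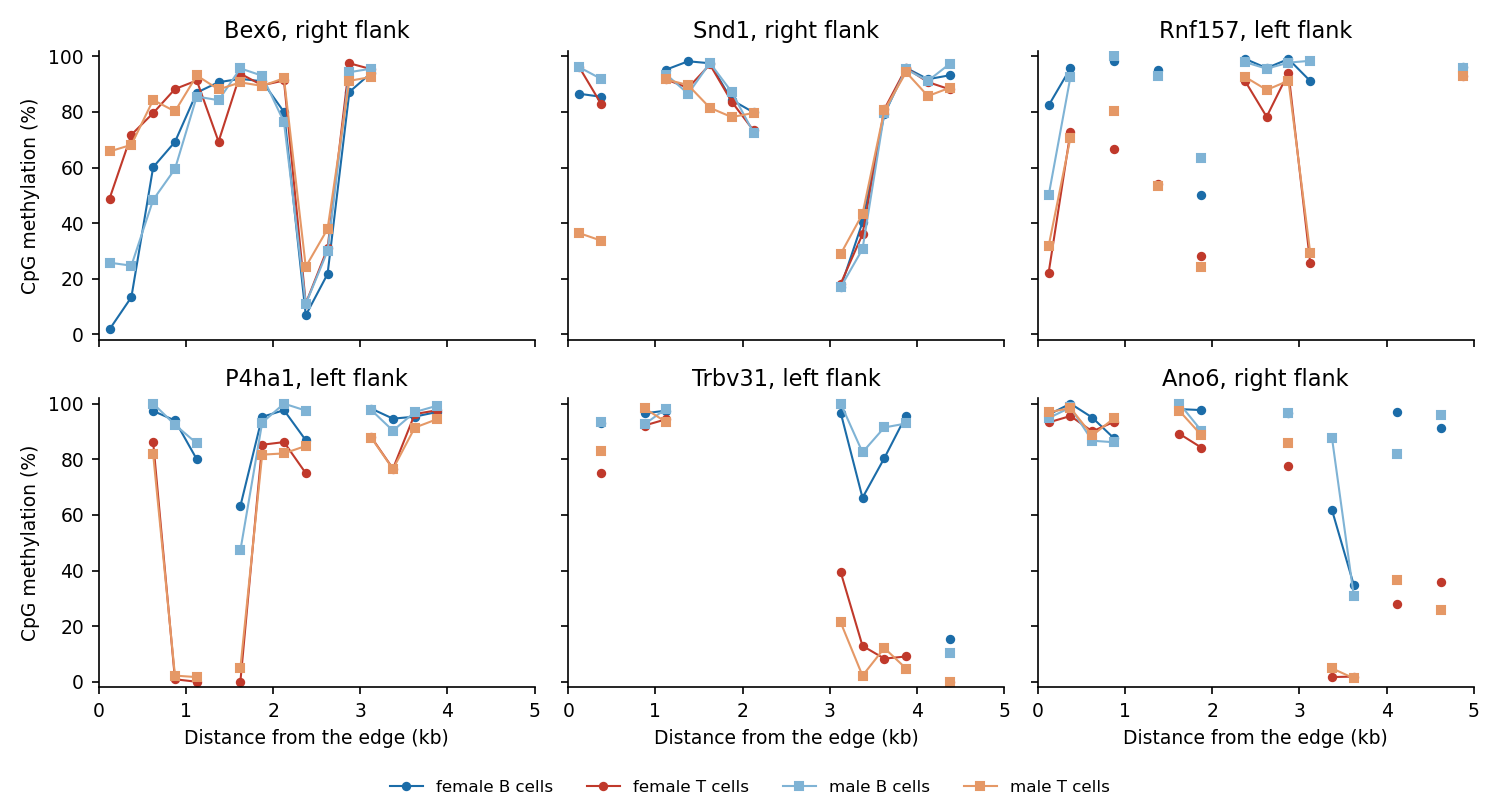
CpG methylation (%) of each measured 250-bp step against distance from the edge (kb) in 6 VM-IAP flanks, with 1 line per library, broken where a step was not measured. At Bex6 the libraries come together by the fifth step and at Snd1 male T cells leave the others within 500 bp of the edge, and at P4ha1, Trbv31 and Ano6 right the widest gaps between B and T cell libraries lie more than 0.5 kb from the edge (first step not measured at P4ha1 and Trbv31).

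Over whole 5-kb flanks the difference from the controls was smaller than in the first step. The median level of 191 VM-IAP flanks was 87.6% in B cells and 86.1% in T cells of females, and 88.0% and 84.4% in those of males, and that of 58 control flanks was 90.6%, 89.1%, 91.1% and 89.0%. The difference averaged -3.41 points ± 0.769 (SD over 4 libraries, lower in 4 of 4, exact sign-flip permutation p = 0.13). All autosomal 5-kb regions had medians of 88.9%, 88.2%, 88.8% and 87.9%. The median range was 5.29 points in VM-IAP flanks, 3.90 in control flanks and 3.87 in all autosomal regions. The difference between both sets of flanks, 1.39 points, was 0.83 without the male B cell library, 0.79 without the male T cell library and 0.53 with an unweighted mean over CpGs. The mean level was between 20% and 80% in 51 VM-IAP flanks (26.7%), 6 control flanks (10.3%) and 15.0% of all regions. The range was 10 points or more for 35 VM-IAP flanks (18.3%), 5 control flanks (8.62%) and 8.39% of all regions.

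Between the 4 libraries 1.75% of all autosomal 5-kb regions were called, against 9 of 191 VM-IAP flanks (4.71%) and 1 of 58 control flanks (1.72%), which was H2T24 left (93.0%, 71.8%, 92.5% and 72.6%). The 9 were both flanks of Mbnl1 and Trbv31, Ano6 right, Lrfn3 right, Bex6 right, Rnf157 left and P4ha1 left. Mbnl1 right, in an intron of a splicing regulator, had 41.7% in B cells and 14.9% in T cells of females, and 51.5% and 15.4% in those of males. Lrfn3 right, named after the gene of a synaptic adhesion protein, had 60.0%, 38.1%, 56.1% and 39.7%. In all 9 the B and T cell libraries did not overlap, and Bex6 right, with 59.5%, 75.0%, 57.5% and 79.3%, was the one with T cells higher. The share without overlap among all called 5-kb regions was not computed, and among all called autosomal 250-bp steps it was 96.7%. Between B and T cells 1.29% of all regions were called, and 7 VM-IAP flanks (all of the 9 but Lrfn3 and Bex6, whose mean differences of 19.1 and -18.7 points fell short of 20) and 1 control flank.

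No flank was called between females and males with the quasi-likelihood test of edgeR, as were 0.000423% of all regions. At an unadjusted p under 0.05 there were 15 VM-IAP flanks and 0 control flanks, and limma called 0 after adjustment and had 13 and 3 without it. For a B minus T difference that differs between the sexes, 0% of all regions and 0 flanks were called (4 VM-IAP and 2 control flanks at an unadjusted p under 0.05, and 7 and 2 with limma, which called 0). The shares of all 5-kb regions at an unadjusted p under 0.05 were not computed for either contrast, so these unadjusted counts have no background. Among steps, 0.000462% of all were called between the sexes and none of the flanks' steps (68 VM-IAP and 18 control steps at an unadjusted p under 0.05, as had 3.22% of all steps). For the B minus T difference that differs between the sexes, 0.000109% of all steps were called, which is 4 steps, and 1 of these was the first step of Snd1 right.

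A run of affected steps was followed outwards from the edge, passing over steps that were not measured, so its length can be too long where steps are missing. Of 39 VM-IAP flanks with an affected first step, the run ended at 250 bp in 19, between 500 and 1000 bp in 15 and beyond 1 kb in 5, with a median of 500 bp. In 34 of them the next measured step was over 80%, and in 5, Rab6b right and Hist4h4 right among them, it was under 20%, so that the run stopped where the level dropped further. Rab6b right and Hist4h4 right each hold the start of the gene they are named after. Their levels over 5 kb were 7.74% to 13.9% and 15.6% to 23.6%, and the part of the gene start in this was not tested. The 5 beyond 1 kb were Rnf157 left (2000 bp), Creb3l2 right (1750 bp), Eps8l1 right (1500 bp), Ano6 left (1250 bp) and Bmf right (1250 bp), and these runs rested on 5, 3, 4, 4 and 3 measured steps, with unmeasured ones between. The first step of Creb3l2 right was low, with 25%, 5%, 0% and 6.06% on 20 to 40 reads. It counted as affected by its range alone, and its difference between libraries was not called. Without the demand for a measured first step, 24 of 189 VM-IAP flanks and 3 of 58 control flanks had a run beyond 1 kb. With a level from 30% to 70% or a range of at least 30 points in place of the limits above, these counts were 8 and 1. In 19 of these 24 the first step was not measured, and in 11 the run rested on a single step. The longest ones were of this kind: Dmrta1 right (5000 bp) had 1 measured step, and 1 of the 9030624G23Rik loci (right, 4750 bp) had none measured within 4250 bp of the edge. Another 9030624G23Rik locus (right, 3000 bp) had none within 2750 bp. Trbv31 right (3750 bp) had none within 2750 bp, Vmn2r-ps126 left (3250 bp) none within 3000 bp, and AK078446 left (2750 bp) none within 2500 bp.

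The loci that the study profiled in detail showed both short and longer runs. At Tfpi, a coagulation inhibitor gene, the run reached 750 bp on the side of the variable 5′ LTR and 0 bp on the other side. The first 500 bp of that run were unmeasured, it rests on 1 step (mean 75.9%), and of the 3 CpGs nearer the element the one at 236 bp had 71.4% to 94.1% and those at 362 and 422 bp 80% to 100%. On the other side the first step fell just short of the range limit (mean 88.3%, range 18.4 points). At Slc15a2, a peptide transporter gene, the run was 0 bp on both sides. No step in the first 1 kb was measured on the left, however, and on the right the first step lay just outside both limits (mean 81.1%, range 19.7 points). The range over the whole flanks was 2.93 points on the left and 3.84 on the right. At Marveld2, the tricellulin gene, where both LTRs vary, it was 250 bp on both sides, and the next measured steps began at 1250 bp on the left and 1000 bp on the right. At Eps8l1 it was 500 bp on the left and 1500 bp on the right, at Rnf157 2000 and 750 bp, and at Gm13849 0 and 1500 bp. The first step was not measured at Eps8l1 left, Rnf157 right or either side of Gm13849, where the run of 1500 bp rests on a single step. At Mbnl1 it was 2250 bp on the left and 1250 bp on the right, with the first 2000 and 750 bp unmeasured. At 2610035D17Rik, a solo LTR, it was 250 bp on the left, where the second step was lower still (mean 9.9%) and the third was affected again (38.3%), and on the right it reached 2250 bp over 5 affected steps with the first 750 bp unmeasured. At Bmf the left flank, beside the variable 5′ LTR, was near 0% in the first 500 bp (means of 2.04% and 0.41%), and 93.4% by the fifth step.

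In sequence, the VM-IAP flanks held 9.53 CpGs per kb, the control flanks 7.82 and all autosomal 5-kb regions 8.51, and their first steps held 9.31 and 9.38. Repeats made up 38.7% of the letters of the VM-IAP flanks, 35.1% of the control flanks and 33.5% of all regions. The core consensus of CTCF, a factor that organizes chromatin loops, was searched on both strands and matched in 8 of 198 VM-IAP flanks (4.04%), 0 of 58 control flanks and 2.47% of all 5-kb regions of the same length. In the first 1 kb it matched in 1 of 198 VM-IAP flanks (0.51%), 0 of 58 control flanks and 0.50% of all autosomal 1-kb regions. A match is a description of letters and not a bound site. In the first steps under 50% repeat-masked, 30 of 61 VM-IAP flanks were affected (49.2%) and 0 of 23 controls. A gene start lay in 33 VM-IAP flanks (16.7%) and 5 control flanks (8.62%).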

How the data were processed

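Whole-genome oxidative bisulfite data of 4 libraries were used, 1 per cell type (B or T cells) and sex. The submitters' processing notes name Trim Galore, FastQC, Bismark 0.13.1 and build mm10 (GRCm38). Duplicate removal and the joining of samples are not given in the sources used here. The deposited files give, for each CpG with at least 5 reads, the count of reads and the methylated fraction, which the authors rounded to 3 decimals. Methylated reads were recovered from these as whole numbers. The level of a region was the sum of methylated reads over the sum of reads, at CpGs listed in all 4 libraries.

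The members and lists were chosen with earlier results of these data known. VM-IAPs, their coordinates and the variable LTR came from the study's list, and its other tested IAPs served as controls, of which 7 of 29 are on an additional list of the study with a lower threshold. Named flanks were the 10 with the largest range in the first step, the 5-kb flanks called between libraries, the 6 with the longest run of affected steps, both flanks of the loci the study profiled, and called controls. Others are said to have been chosen after their values were seen, or belong to the loci measured on both sides.

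Differences of medians were tested by an exact sign-flip permutation over the 4 libraries. Methylated and unmethylated read counts of all autosomal 5-kb regions and 250-bp steps were fitted with edgeR 4.0.16 under R 4.3.3. Each library had its own term, with Benjamini-Hochberg adjustment over all regions. The likelihood ratio test between libraries used 3 degrees of freedom and a common dispersion from the fit with cell type and sex. Contrasts used the quasi-likelihood test with 1 residual degree of freedom, and limma 3.58.1 as an alternative. A call needed an adjusted p under 0.05 and a range or mean difference of at least 20 points. The fits were tested on simulated data. Wilson intervals cover counting error only. The fits too used reads summed over CpGs, where a read over several CpGs counts at each, so their p-values may be too small. Gene annotation and sequence came from the GRCm38 reference.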

Additional observations from a re-analysis of the deposited data

Results flagged for a closer look

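The first step of Snd1 right stood out because B and T cells differed by another amount in females than in males. It was -9.60 percentage points in females and 59.7 in males, and the contrast, which is 50% of the difference between these values, was -34.6 points (adjusted p = 1.6e-06, edgeR quasi-likelihood test). The fit held this contrast in place of the sex term, so its 1 residual degree of freedom was the difference between the sexes. The male T cell library alone had the low level (36.4%), and with 1 library per group the sex and the pool of mice cannot be told apart.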

How the results depend on the processing

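Of 97 alternatives over 12 results, 81 left the result in place, 16 moved it and 0 reversed it. In place means a level difference within the SD over libraries of the main value, or a count or range within a fixed ratio of it. These limits are wide: a first-step level going from -14.3 to -9.68 points with steps of 500 bp counted as in place. Results with 0 calls that stayed at 0 counted so too. The range of 5-kb flanks, VM-IAP minus control (1.39 points), was 0.53 with unweighted CpGs, 0.56 without controls of the additional list, 0.91 for elements over 1 kb, 0.72 as second highest minus second lowest library, and 0.79 to 1.68 with a library left out. The level of 5-kb flanks (-3.41) was -2.57 without CpGs near gene starts and -3.56 to -3.02 with a library left out. The first-step range (6.31) was 1.41 as second highest minus second lowest library and 3.19 to 8.71 with a library left out, and the first-step level -16.7 to -12.4. Affected first steps (39) numbered 25 with the limits of 30% to 70% or 30 points, 61 of 117 in place of 39 of 83 with at least 1 CpG and 10 reads per step (52.1% against 47.0%; control 2 of 37), and 36 to 42 with a library left out. Runs beyond 1 kb (24) numbered 8 with the limits of 30% to 70% or 30 points and 16 with at least 1 CpG and 10 reads per step (control 3). They numbered 5 for flanks with a measured first step, an alternative chosen after seeing the data, and 19 to 22 with a library left out. The side difference (-54.2) was -27.4 with steps of 500 bp and -63.5 to -45.9 with a library left out. It was not computed without CpGs near gene starts. Without a minimum size, 46 flanks were called between libraries (control 8, 11.8% of all regions) and 54 between B and T cells (control 8, 14.6% of all regions). With a library left out these calls were 7 to 9 and 6 to 8, those between the sexes 0, and called steps 84 to 90. No paired analysis was possible because the groups share no replicate numbers and each is 1 library. Most steps have few CpGs, so short flanking DNA poor in CpGs was not measured.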
